A study of Homo sapiens with 3 samples.

Results

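Regions of trimethylated lysine 9 of histone H3 (H3K9me3) at recently duplicated primate gene families were examined in Jurkat cells, an established T cell acute lymphoblastic leukaemia line. Members were the deposited regions on chromosomes 1 to 22 whose gene list held a symbol starting with 1 of 23 family names, among them BAGE, FRG1, FRG2, DUX, POTE, NBPF, PRAMEF, FAM90A, DEFB and DDX11L. This rule found 72 of 54116 regions, 35 of 27178 in the CXCL12 library and 37 of 26938 in the control library. Chained where they shared at least 1 bp, they formed 40 of 29404 loci on 14 chromosomes, with 31 symbols from 15 of the families. Both groups were Jurkat cells kept for 90 min without serum. The CXCL12 group then received the chemokine for 15 min at a dose of 100 ng/ml, and the control group was left untreated. Each group is 1 library of 1 cell line, so differences are given without a test and without replicates behind them. The input library was not analysed here, read totals are unknown, and the identity of the line was taken from the labels, since these data hold no expression.

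H3K9me3 is written by the SUV39H and SETDB1 methyltransferases and bound by HP1 proteins, and it marks silent chromatin such as pericentromeric and subtelomeric repeats. Many young primate gene families lie in just these places, in blocks of segmental duplication whose copies differ at few bases, and several are silent outside germ cells, early embryos or tumours. CXCL12 signals through the receptor CXCR4 in T cells. A read from such a copy can match several places in the genome, so the placement of reads among copies is uncertain. How far this holds differs between the families, since not all members caught by the rule are near-identical copies. The sources used here do not say how reads with several matches were handled. By the deposited position labels, 13 of the 40 loci had a region in a member gene. The other 27 had regions only beside one, at the distances the deposited annotation allows. The labels follow the highest bin, so a locus labelled beside a gene can hold its start, as at FRG1, DDX11L11 and DEFB128.

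How alike copies can be is shown by the 250 bases before the start of FRG2, FRG2B and FRG2C, a family named for the facioscapulohumeral muscular dystrophy region, because this family held a region in control only, a region after CXCL12 only and a shared locus. The sequences are RefSeq's, in GRCh38.p14, and they lie outside the deposited regions, which are in hg19. Capitals mark positions at which the 3 copies are not all the same.
FRG2: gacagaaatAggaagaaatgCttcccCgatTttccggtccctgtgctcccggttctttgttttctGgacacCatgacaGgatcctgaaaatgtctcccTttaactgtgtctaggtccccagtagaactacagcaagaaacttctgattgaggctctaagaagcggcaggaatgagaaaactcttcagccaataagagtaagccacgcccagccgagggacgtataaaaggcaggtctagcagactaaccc
FRG2B: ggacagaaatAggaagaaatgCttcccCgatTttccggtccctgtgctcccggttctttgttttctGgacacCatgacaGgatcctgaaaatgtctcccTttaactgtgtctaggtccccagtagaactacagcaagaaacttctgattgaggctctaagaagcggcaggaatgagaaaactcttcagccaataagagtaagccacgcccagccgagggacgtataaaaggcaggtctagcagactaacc
FRG2C: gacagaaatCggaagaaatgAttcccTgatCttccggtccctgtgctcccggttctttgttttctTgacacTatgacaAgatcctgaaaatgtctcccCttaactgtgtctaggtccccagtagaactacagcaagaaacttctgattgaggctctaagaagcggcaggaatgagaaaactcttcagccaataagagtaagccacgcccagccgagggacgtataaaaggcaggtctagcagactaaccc
FRG2 (chr4:190027257-190027506, minus strand) and FRG2B (chr10:133626796-133627045, minus strand) were identical over 249 aligned bases. FRG2C (chr3:75664078-75664327, plus strand) matched FRG2 at 242 of 250 bases (96.8%), with 8 mismatches. Of the 31 symbols, 17 had such a window in the table for a chromosome from which sequence was read. The windows of POTEE and POTEF shared 126 of 127 aligned bases, and the rest of their 250 bases did not align. Other pairs of a family were less alike. DEFB125 and DEFB126 matched at 143 of 232 aligned bases. Only 9 bases aligned between NBPF6 and NBPF9, and 8 between ZDHHC11 and ZDHHC11B.

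The genes PRAMEF1 and PRAMEF12 are copies whose windows differed more than those of the FRG2 copies, but less than those of DEFB125 and DEFB126. They are shown because 1 shared H3K9me3 locus lay between them. Capitals mark mismatched bases; 1 base present in only one of the sequences is left in lower case.
PRAMEF1: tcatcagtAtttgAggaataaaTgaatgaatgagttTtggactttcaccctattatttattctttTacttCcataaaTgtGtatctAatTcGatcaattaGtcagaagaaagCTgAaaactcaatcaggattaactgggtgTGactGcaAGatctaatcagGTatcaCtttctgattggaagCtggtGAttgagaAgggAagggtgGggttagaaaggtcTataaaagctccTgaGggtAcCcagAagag
PRAMEF12: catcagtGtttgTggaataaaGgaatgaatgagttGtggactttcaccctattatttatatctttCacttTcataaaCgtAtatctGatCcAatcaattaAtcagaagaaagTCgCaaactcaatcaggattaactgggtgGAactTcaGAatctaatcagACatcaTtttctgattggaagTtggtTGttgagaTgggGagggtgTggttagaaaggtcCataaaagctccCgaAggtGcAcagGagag
PRAMEF1 (chr1:12791147-12791396, plus strand) and PRAMEF12 (chr1:12773488-12773737, plus strand) matched at 214 of 249 aligned bases (85.9%), with 35 mismatches and 1 gap base.

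H3K9me3 over the duplicated families was much the same in both libraries. Of the 40 loci, 32 (80%, exact binomial 95% interval 64.4 to 90.9%) were called in both libraries, against 73.3% of all loci. A further 3 loci (7.5%) were called after CXCL12 only, against 14.6% of all loci, and 5 (12.5%) in control only, against 12.2%. At the 32 shared loci the median log2 ratio of mean signal, CXCL12 over control, was 0.00 (order-statistic 95% interval −0.08 to 0.18), with 16 loci above 0 and 16 below. Over all 21541 shared loci the median was 0.04, and 57.0% were above 0. The SD over loci was 0.27 for the duplicated families and 0.27 for all shared loci. These intervals cover the spread over loci in these libraries, not the variation between cultures.

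No shared locus of the duplicated families differed by 2-fold or more. The count was 0 of 32 in the higher direction and 0 of 32 in the lower, where 0.116% and 0.176% of all shared loci passed the same limits. At 1.5-fold, 2 of 32 loci were higher, both at TUBB4Q, against 2.27% of all shared loci, and 0 were lower, against 1.92%. At the 2-fold shares less than 1 locus in 32 would be counted, so the count of 0 does not set the families apart. The log2 ratios ran from −0.41 at DDX11L11 to 0.66 at TUBB4Q. By the highest bin of each locus, the range was −0.70 to 0.74, the median was 0, and again 0 of 32 loci were 2-fold apart, against 0.696% higher and 0.279% lower among all shared loci. The mean and the highest bin had the same sign at 18 loci and opposite signs at 9. No share over all shared loci is at hand for these counts, so they do not set the families apart.

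**Figure D1:**
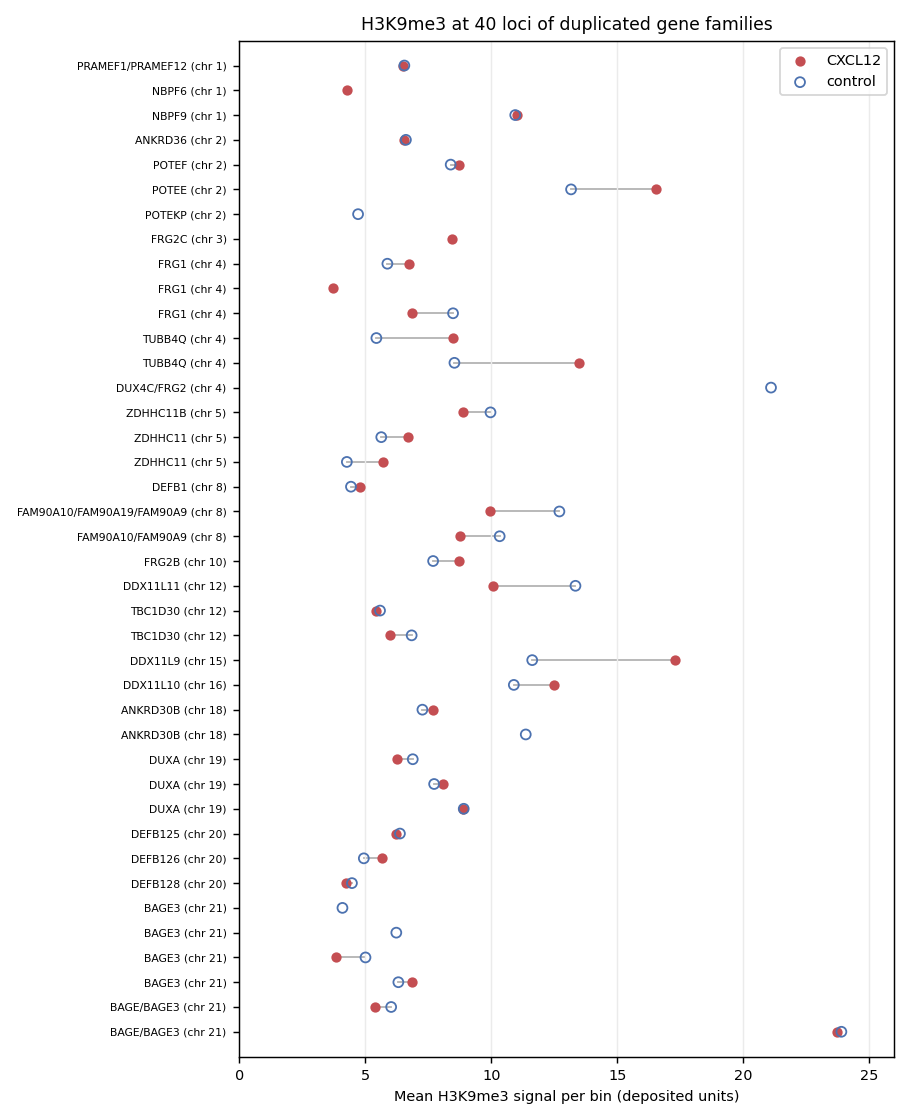
Mean H3K9me3 signal per bin at each of the 40 loci, with the CXCL12 library as filled points and the control library as open circles, joined where both libraries had a region. Points lie close together at most shared loci, the locus of DUX4C and FRG2 stands alone at 21.1 in control, and the longest BAGE locus lies near 24 in both libraries.

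**Figure D2:**
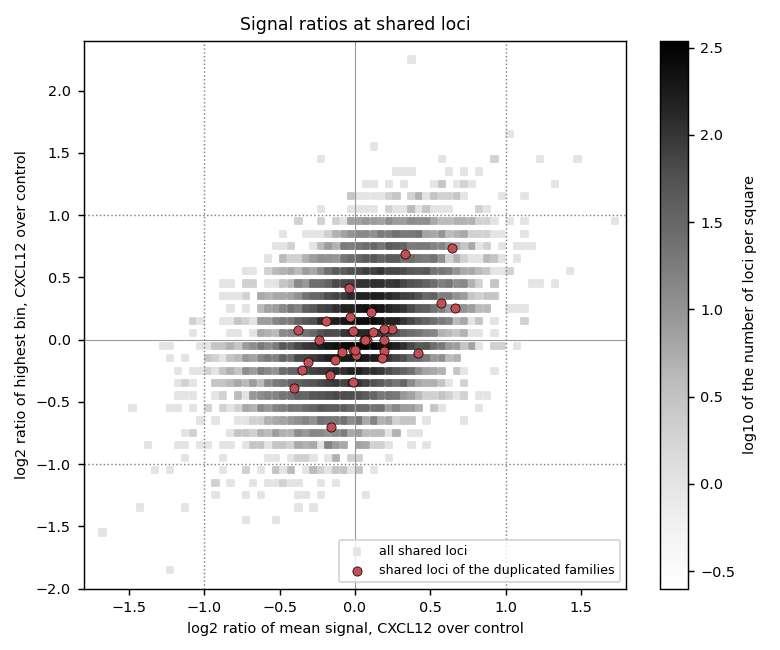
Log2 ratio of the mean signal (x axis) and of the highest bin (y axis), CXCL12 over control, for the 32 shared loci of the duplicated families (red) over a grey density of all 21541 shared loci. The dotted lines mark 2-fold, and each red point lies within them on both axes.

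The regions of the duplicated families were on the median stronger than regions in general, in both libraries, and also shorter when loci beside the genes were included. Their median length was 3600 bp after CXCL12 and 3600 bp in control, against 4200 and 4000 bp over all regions. Over gene-carrying regions outside the families it was 4400 bp after CXCL12 and 4200 bp in control. Among regions labelled as in a member gene it was 4200 bp after CXCL12 and 4900 bp in control. The median of the mean signal was 6.86 after CXCL12 and 6.88 in control, against 5.10 and 5.06 over all regions. Over gene-carrying regions outside the families it was 5.31 after CXCL12 and 5.25 in control. Among regions labelled as in a member gene it was 5.70 after CXCL12 and 6.27 in control. Of the 32 shared loci, 27 lay at or above the median signal of all shared loci. A promoter was annotated at 16 of 35 CXCL12 regions (45.7%) and 18 of 37 control regions (48.6%). Over all gene-carrying regions outside the families the share was 17.9% after CXCL12 and 18.2% in control. Since the rule asks for a gene in or beside the region, the shares over all regions, 8.10 and 8.29%, are not a like comparison. Zinc finger regions, found by gene symbol in the same way, had 51.5% after CXCL12 and 51.2% in control. A CpG island was annotated at 4 CXCL12 regions (11.4%) and 5 control regions (13.5%), against 6.85% and 7.17% of gene-carrying regions outside the families. Zinc finger regions had 28% after CXCL12 and 26.8% in control, and olfactory receptor regions had 4.12% and 2.53%. Regions at other families of segmental duplications had 14.0% after CXCL12 and 12.5% in control.

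Called length was near equal, at 288.6 kb after CXCL12 and 287.2 kb in control, a ratio of 1.00 where all loci together had 1.07. Of the 32 shared loci, 17 were longer after CXCL12 (53.1%, against 55.0% of all shared loci). A further 6 were shorter, against 8067 of all 21541 shared loci, and 9 had the same length, against 1623 of 21541. Because lengths differ, mean and sum can point apart: the summed signal was higher after CXCL12 at 24 of 32 loci and lower at 8, against 67.0% higher among all shared loci. Mean and sum had opposite signs at 12 of 32 loci, against 46.7% of all shared loci. A single BAGE locus, part of it in regions without a listed gene, made up 38.5% of the called length after CXCL12 and 37.5% in control. Without it the sums were 177.6 kb after CXCL12 and 179.6 kb in control.

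Several of the families lie near chromosome ends, which follows from the genes the rule names: 16 of the 40 loci (40%) lay within 1 Mb of a chromosome's first base or of the last region listed on it, against 2.09% of all loci. These were the loci at FRG1, TUBB4Q and DUX4C on 4, ZDHHC11 and ZDHHC11B on 5, FRG2B on 10, DDX11L11 on 12, DDX11L9 on 15, DDX11L10 on 16 and DEFB125, DEFB126 and DEFB128 on 20. Neighbouring members share such a block, so the loci are not independent of each other.

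The strongest and longest shared locus of the families began at the BAGE genes, which encode the B melanoma antigens known from tumours and testis. At chromosome 21, 11050000 to 11161799 (hg19), the mean signal over all bins was 23.7 after CXCL12 and 23.9 in control, and the highest bins were 179 and 171. This placed the locus at percentile 99.9 of all shared loci by signal. The 2 libraries divided it differently: CXCL12 had 2 regions over 111.0 kb, and control had 5 regions over 107.6 kb. The CXCL12 part with the higher mean spanned 77600 bp at a signal of 29.0, while the strongest control part spanned 47200 bp at 38.6. Neither of these parts listed a gene, and they belong to the locus through chaining. The parts that listed BAGE had a mean of 11.2 after CXCL12 over 33400 bp. In control they had 7.59 over 7200 bp and 14.0 over 44000 bp. These parts cover unequal stretches, so they are not compared. Over the whole locus the log2 ratio was −0.01 by mean signal and 0.03 by summed signal.

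The listed start of BAGE3, at 11058323, lay inside a CXCL12 region (11050000 to 11083399). In control it lay in a gap of 1200 bp between regions ending at 11057799 and starting at 11059000. The listed start of BAGE, at 11059817, lay inside a region in both libraries. So at BAGE3 the gap between control regions fell on the gene's start, while the locus as a whole had nearly the same signal in both libraries. Further along BAGE3, 3 weaker shared loci followed. At 11045600 to 11049199 the mean signal was 5.39 after CXCL12 over 3600 bp and 6.03 in control over 2400 bp, and the highest bins were 16 and 26. By sum the direction there was the opposite, with a log2 ratio of 0.43 against −0.16 by mean. At 11039000 to 11044999 the mean signal was 6.86 after CXCL12 and 6.31 in control. At 11031800 to 11037799 it was 3.85 after CXCL12 and 5.01 in control, the highest bin going the other way with 19 and 18. By mean signal these 3 loci had no common direction. In control only, BAGE3 also held regions of 1400 bp (4.09) and 400 bp (6.23), with the nearest CXCL12 region 8.6 and 6.6 kb away. Over the whole 140.0 kb from the first to the last BAGE locus, the called length was 126.4 kb after CXCL12 and 122.8 kb in control.

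**Figure D3:**
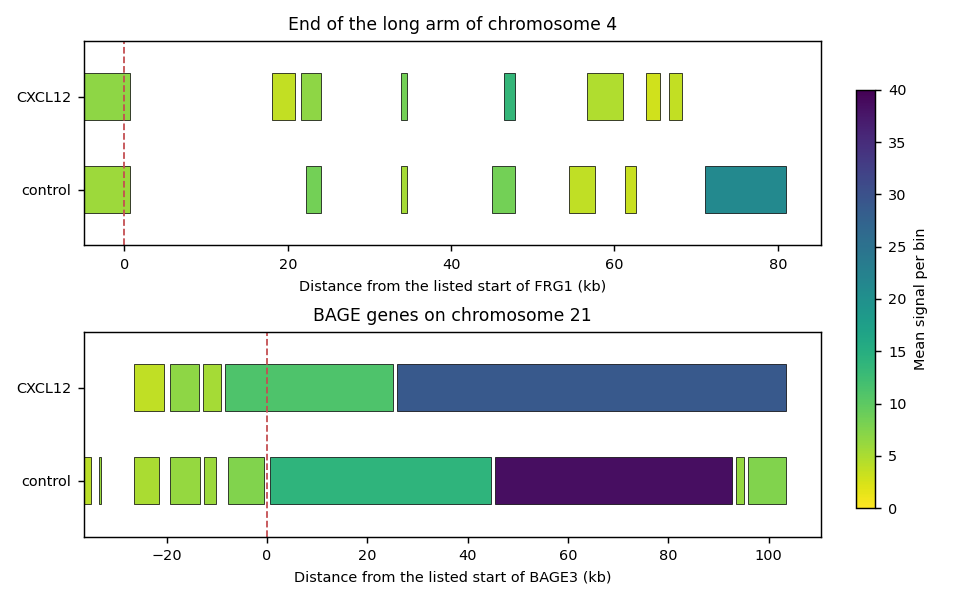
Called regions of the CXCL12 library (upper row) and the control library (lower row) at the long-arm end of chromosome 4 and over the BAGE genes on chromosome 21, by distance in kb from the listed start of FRG1 or BAGE3 (dashed line), coloured by mean signal per bin. On chromosome 4 the region of 21.1 at the right is in the control row alone, and on chromosome 21 the same stretch is divided into 2 regions after CXCL12 and 5 in control at its right side.

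The long arm of chromosome 4 ends in a stretch with FRG1, TUBB4Q, FRG2 and DUX4C, next to the D4Z4 repeats that are contracted in facioscapulohumeral muscular dystrophy. FRG1 encodes a nuclear RNA-binding protein linked to splicing. Its start, listed at 190861974, lay inside a shared locus with a CpG island at 190857000 to 190862599. There the mean signal was 6.73 after CXCL12 and 5.88 in control (log2 ratio 0.20), the highest bins were 46 and 49, and both regions measured 5600 bp. The 250 bases before the RefSeq start of the gene, with CG dinucleotides in capitals, are shown because they are the CpG-rich part of a promoter under the mark.
FRG1: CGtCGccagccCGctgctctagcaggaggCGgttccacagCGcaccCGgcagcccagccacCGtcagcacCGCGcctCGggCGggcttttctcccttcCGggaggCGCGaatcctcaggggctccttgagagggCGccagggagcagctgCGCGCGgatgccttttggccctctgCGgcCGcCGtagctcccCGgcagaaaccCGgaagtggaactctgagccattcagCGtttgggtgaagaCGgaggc
This window (GRCh38.p14, chr4:189940622-189940871, plus strand) held 25 CG dinucleotides and 69.2% G and C, against medians of 11 and 58% over 35116 such windows, of which 21.6% held as many or more and 93.9% held any. Inside FRG1, a region of 2800 bp at 190880000 to 190882799 was called after CXCL12 only, with the low mean signal of 3.73, and a control region lay 1.4 kb away. The locus downstream of the gene, at 190883600 to 190885999, had 6.84 after CXCL12 over 2400 bp and 8.48 in control over 1800 bp, with a log2 ratio of −0.31 by mean and 0.09 by summed signal.

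TUBB4Q, a beta-tubulin pseudogene, had the largest shared ratios of all the families. Upstream of it, at 190907000 to 190909799, the mean signal was 13.5 after CXCL12 and 8.54 in control (log2 ratio 0.66). The CXCL12 region there measured 1400 bp and the control region 2800 bp, so the summed signal went the other way, with a log2 ratio of −0.34. Downstream, at 190895800 to 190896599, the mean was 8.48 after CXCL12 and 5.44 in control (0.64) over 800 bp in both. The highest bins there were 15 and 9.

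The strongest region found in a single library lay next to these loci and reached the last position called on the chromosome. In control, 10000 bp at 190933000 to 190942999 over DUX4C, a DUX4-like homeobox gene beside D4Z4, and downstream of FRG2 had a mean signal of 21.1, a highest bin of 61 and 5 CpG islands. After CXCL12 no region was called there, and the last CXCL12 region ended 2.8 kb before it. Over the 86.0 kb from the first FRG1 locus to this end, the summed signal was 3615 after CXCL12 and 9360 in control. Over the first 76.0 kb, which leave out this region, it was 3615 after CXCL12 and 2776 in control. Without this 1 region the higher sum after CXCL12 went with more called length, 20.8 kb after CXCL12 and 15.6 kb in control, while the mean per bin was 5.88 after CXCL12 and 5.98 in control.

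The other FRG2 copies did not share that pattern. Downstream of FRG2C on chromosome 3, at 75723600 to 75727399, a region with a mean signal of 8.43 and a highest bin of 42 was called after CXCL12 only, 2.6 kb from the nearest control region. It borders a long H3K9me3 block that runs through the zinc finger gene ZNF717. Over the 115.4 kb from the start of this region through ZNF717, the called length was 107.6 kb after CXCL12 and 99.0 kb in control. These lengths include the region itself. Downstream of FRG2B on chromosome 10, at 135426000 to 135436599, the mean was 8.70 after CXCL12 over 8200 bp and 7.69 in control over 10600 bp, with a log2 ratio of 0.18 by mean and −0.20 by summed signal. All these regions lay on the same side of their FRG2 copy, with the highest bin 6332 bp (FRG2, control), 10417 bp (FRG2C, CXCL12), and 8491 bp after CXCL12 and 8331 bp in control (FRG2B) from the gene start. Whether reads were placed differently among these copies in the 2 libraries was not tested.

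The homeobox gene DUXA, active in early embryos, is matched by the DUX prefix but is not among the D4Z4 copies. It lies among zinc finger genes on chromosome 19, where 3 long shared loci surrounded it between 57633400 and 57703799. The locus in the gene had a mean signal of 8.08 after CXCL12 over 17.4 kb and 7.73 in control over 17.2 kb. The one between DUXA and ZNF264 had 8.89 after CXCL12 over 20000 bp and 8.91 in control over 18800 bp. The third, reaching to USP29, had 6.28 after CXCL12 in 2 regions and 6.88 in control in 1 region. The start of DUXA, listed at 57678856, lay in a gap between regions in both libraries.

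Short loci lay some way from the POTE genes, whose products join ankyrin repeats to other domains, in POTEE and POTEF an actin. Downstream of POTEE on chromosome 2, at 132028600 to 132029999, the mean signal was 16.5 after CXCL12 and 13.2 in control (log2 ratio 0.33), with highest bins of 37 and 23 over 1400 bp in both. This highest bin lay 53084 bp after CXCL12 and 53452 bp in control from the gene's start, so the locus is not at the promoter of POTEE. The locus also listed the uncharacterised gene LOC440910, and 1 promoter was annotated there in each library. Near POTEF, the close copy of POTEE, at 130823200 to 130823999, the mean signal was 8.74 after CXCL12 and 8.39 in control over 600 bp each. The pseudogene POTEKP had a control-only region of 3600 bp at 4.71, with no CXCL12 region within 102.8 kb.

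The DDX11L loci were strong and did not share a direction. They belong to DDX11-like pseudogenes that sit at many chromosome ends. DDX11L9, at chromosome 15, 102520200 to 102521199, had 17.3 after CXCL12 and 11.6 in control (log2 ratio 0.57), and DDX11L10, at chromosome 16, 60000 to 60599, had 12.5 and 10.9 (0.20). DDX11L11, at chromosome 12, 92200 to 95599, had 10.1 after CXCL12 and 13.3 in control (−0.41), the smallest ratio of mean signal among the families. By summed signal its log2 ratio was −0.16. The highest bins had the same order, with 33 and 27 at DDX11L9, 17 and 16 at DDX11L10, and 29 and 38 at DDX11L11. All 3 loci were among the strongest of shared loci, at percentiles 98.9 (DDX11L9), 96.9 (DDX11L10) and 96.7 (DDX11L11) by signal.

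ZDHHC11 had 3 shared loci, NBPF 2 loci of which 1 was shared, and PRAMEF 1 shared locus. ZDHHC11 and ZDHHC11B are neighbouring genes for palmitoyltransferase-like proteins on chromosome 5. The locus at 801400 to 806199 in ZDHHC11 had 5.70 after CXCL12 and 4.27 in control (log2 ratio 0.42). By summed signal the log2 ratio there was 0.23, and the highest bins went the other way, with 13 after CXCL12 and 14 in control. Downstream of ZDHHC11 the mean was 6.68 after CXCL12 and 5.63 in control, and at ZDHHC11B it was 8.87 after CXCL12 over 8000 bp and 9.97 in control over 6600 bp, with a log2 ratio of −0.17 by mean and 0.05 by summed signal. NBPF9, of the neuroblastoma breakpoint family, had 11.0 after CXCL12 and 11.0 in control downstream of the gene on chromosome 1 (144838000 to 144845599). NBPF6 had a CXCL12-only region of 1600 bp at 4.28, with the nearest control region 43.0 kb away. The locus between PRAMEF12 and PRAMEF1, leucine-rich repeat genes of the PRAME antigen family, had 6.50 after CXCL12 and 6.55 in control.

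Beta-defensins, small antimicrobial peptides of epithelia and the male tract, had mean signals of 4.22 to 6.23 after CXCL12 and 4.43 to 6.37 in control, around the medians of all regions. DEFB125 had 6.23 after CXCL12 and 6.37 in control, DEFB126, a coat protein of primate sperm, 5.65 and 4.94, and DEFB1 4.77 and 4.43. At DEFB128, whose listed start at chromosome 20, 170264, lay inside the region in both libraries, the mean was 4.22 after CXCL12 over 8200 bp and 4.47 in control over 6000 bp, and the summed signal had a log2 ratio of 0.29. This second promoter under the mark is shown with CG dinucleotides in capitals.
DEFB128: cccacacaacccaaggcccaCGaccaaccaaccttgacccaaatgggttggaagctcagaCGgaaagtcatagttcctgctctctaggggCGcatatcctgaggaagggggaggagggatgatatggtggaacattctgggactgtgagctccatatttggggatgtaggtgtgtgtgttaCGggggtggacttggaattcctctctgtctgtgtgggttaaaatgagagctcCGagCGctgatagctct
The window (GRCh38.p14, chr20:189712-189961, minus strand) held 6 CG dinucleotides, against 25 at FRG1, and DEFB128 had no annotated CpG island in either library.

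The ankyrin repeat genes ANKRD36 and ANKRD30B had short regions beside them. ANKRD36, on chromosome 2, had 6.55 after CXCL12 and 6.61 in control, upstream of the gene. Downstream of the deposited ANKRD30B gene model on chromosome 18, a locus at 14855400 to 14856599 had 7.68 after CXCL12 and 7.27 in control, with its highest bin 107537 and 107633 bp from the listed start. A control-only region of 600 bp with a mean of 11.4 lay at 14860000 to 14860599, 3.4 kb from the nearest CXCL12 region. The rule also caught TBC1D30, a Rab GTPase-activating gene on chromosome 12 that shares only the letters of TBC1D3. Its loci had 5.43 after CXCL12 and 5.58 in control upstream, and 5.99 and 6.84 in the gene.

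FAM90A, a primate family repeated in tandem on the short arm of chromosome 8, stood out by how little of its regions carried a value. A region's bins lie on a grid of 32 bp, and the deposited number of bins never exceeded the steps that fit. At chromosome 8, 7622400 to 7623599, beside FAM90A19, FAM90A9 and FAM90A10, only 68.4% of the steps were counted after CXCL12 and 71.1% in control. The mean over the counted bins was 9.96 after CXCL12 and 12.7 in control (log2 ratio −0.35). At 7625800 to 7626199 the counted share was 75% after CXCL12 and 100% in control, over 400 and 200 bp, and the mean was 8.78 after CXCL12 and 10.3 in control, a log2 ratio of −0.24 by mean and 0.35 by summed signal. The median share over all regions was 97.2% after CXCL12 and 97.4% in control.

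Low counted shares were not general in the duplicated families. Under 90% were 3 of 35 CXCL12 regions (8.57%) and 4 of 37 control regions (10.8%), against 9.60 and 9.38% of all regions. Besides FAM90A these were downstream of ZDHHC11 (80.5% after CXCL12 and 89.4% in control), at DDX11L11 in control (82.0%, with 91.5% after CXCL12) and at BAGE3 in control (87.2%, with 93.1% after CXCL12). The mean covers the counted bins only, so the levels of all these regions, at FAM90A, ZDHHC11, DDX11L11 and BAGE3, describe only their counted part. Whether the uncounted bins lack reads or cannot be mapped was not tested.

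**Figure D4:**
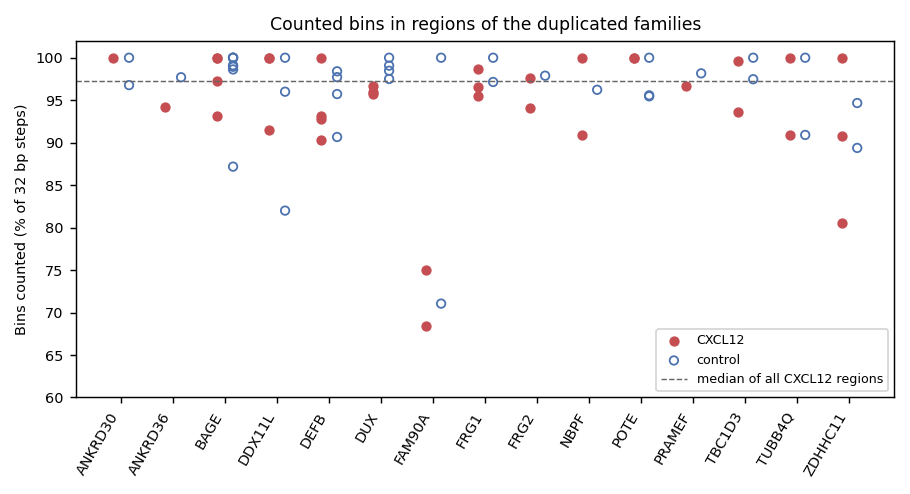
Share of the 32 bp steps of each region that were counted as bins, in percent, by family, for the CXCL12 library (filled) and the control library (open), with the median of all CXCL12 regions as a dashed line. The FAM90A regions lie lowest, at 68.4 to 75% except for a control region of 200 bp at 100%. The control region at DUX4C and FRG2 is plotted under DUX.

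Families of the rule without any region were GOLGA6, GOLGA8, ANKRD20A, USP17, SPDYE, WASH, NPIP and FAM86. Their symbols are not rare, with 14 for WASH and 29 for USP17 among the autosomal RefSeq genes of GRCh38.p14. Since the handling of reads that match several copies is unknown, a missing region says nothing on the mark at these genes.

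Set beside other gene groups, the duplicated families had a share of shared loci and a median ratio in the same range. Of 49 autosomal loci at other families of segmental duplications, 37 (75.5%) were shared, 4 were called after CXCL12 only and 8 in control only, and the median log2 ratio was 0.08. Zinc finger loci had 433 of 499 shared and a median of 0.06, and olfactory receptor loci 74 of 99 and 0.03. The interval of the duplicated families, −0.08 to 0.18, held each of these medians. It counts neighbouring loci of a shared block as independent, so it cannot decide whether the groups differ. Median mean signals were 6.86 after CXCL12 and 6.88 in control for the duplicated families, 7.33 and 6.96 for zinc finger genes, 5.33 and 5.65 for the other segmental duplications and 5.04 and 4.85 for olfactory receptors. These differences between groups of regions were not tested.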

How the data were processed

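H3K9me3 chromatin immunoprecipitation was sequenced from 1 CXCL12 and 1 control library, per the labels. Per the submitters' processing notes, BWA 0.7.12, SICER 1.1 and the build hg19 were used. Their settings, any scaling between libraries and read totals are unknown here. Per the file headers, the authors gave each region's signal as an average over its bins and as its highest bin; mean times bins was whole, within 0.001%, in 100% of regions. Positions, lengths (both ends included), bin, CpG island and promoter numbers and genes are also as deposited, with starts and lengths in steps of 200 bp; whether positions count from 0 or 1 is not given.

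Regions sharing at least 1 bp were chained into loci, and each library's bins in a locus were averaged together. Such loci held 78 regions, 6 of them without a member symbol. Gene starts come from the highest bin and its deposited distance. Named loci were the 6 largest and 6 smallest ratios among loci of at least median signal, the 5 strongest, the 5 highest per single library, the 4 longest regions and each family's highest signal; further loci were added after their values were seen. Members and lists were chosen with earlier results of these data known. Intervals, exact binomial or from order statistics, were set to cover at least 95% and treat loci as independent. Python 3.11.15, pandas 2.3.3, SciPy 1.17.1, Biopython 1.88 and matplotlib 3.10.9 were used, and chaining and ratios were tested on simulated data. A 1.5-fold rule, the highest bin, centring, a pseudocount of 1, stricter overlap, stronger regions and in-gene loci were tried as alternatives.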

Additional observations from a re-analysis of the deposited data

How the results depend on the processing

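Of 46 alternative values, 41 stayed within the interval or limit set for them. The exceptions were the count of loci higher after CXCL12, which was 2 with a 1.5-fold rule (both at TUBB4Q, 2.27% of all shared loci passing it), and the median signal of the regions. With the highest bin, which is another scale, that median was 19 after CXCL12 and 18 in control. In regions labelled as in a member gene it was 5.70 after CXCL12, and as a mean over all bins it was 9.17 in control. The median log2 ratio stayed near 0 throughout, with −0.04 after centring on all shared loci. It was −0.01 at loci labelled as in a member gene and 0.06 without TBC1D30 and DUXA. The ratio of called length was 0.989 without the longest BAGE locus and 1.04 without the DUX4C and FRG2 locus, so its direction is not settled. The ratio of summed signal was 0.968 with that locus and 1.02 without it, so its direction rests on 1 control region; settings that leave out members or 1 locus were chosen after seeing the data. No paired analysis was possible because each group has 1 library. Unknown depth limits what a region called in a single library can show.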
